A study of Mus musculus with 6 samples.

Results

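The testis-specific serine kinases (TSSKs) are a small family of protein kinases, and the mRNA levels of the 6 mouse genes Tssk1 to Tssk6 were read here in neonatal and adult testis. The members were the mRNA probes of a long non-coding RNA and mRNA microarray whose RefSeq accession belongs to one of these genes, which gave 1 probe for each of the 6 genes among 22464 mRNA probes. The array was hybridized with Cy3-labelled cDNA from whole testes of male C57/BL6 mice (written C57BL/6 in the study's methods). There were 3 samples from neonatal mice (6-day) and 3 from adult mice (8-week). Per the study's methods the mice of an age were split into 3 sets, each set giving 1 replicate, so the replicates measure the spread between sets of mice. No treatment, transgene or mutant was involved, and the only factor was age. A seventh probe carries an accession that the RefSeq table did not hold and that the study's annotation names as isoform 2 of Tssk4. It is described beside Tssk4 and was not counted as a member.

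TSSK proteins belong to the calcium/calmodulin-dependent branch of the protein kinases, next to the AMP-activated kinase and its relatives, and they are known for being made almost exclusively in male germ cells after meiosis. Spermatids, the haploid cells that remodel into sperm, are rich in them. The kinases act with a set of partners: TSKS is a substrate of TSSK1 and TSSK2, the co-chaperone TSACC and the heat shock protein HSP90 support TSSK6, and ODF2, a protein of the sperm tail, is a substrate of TSSK4. Loss of Tssk1 together with Tssk2, or of Tssk6, makes male mice infertile. The seminiferous tubules of a 6-day mouse hold spermatogonia and Sertoli cells, while those of an 8-week mouse hold the whole series up to sperm.

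The genes lie on 5 chromosomes. In the RefSeq annotation of GRCm38.p6, Tssk1 (chr16:17894203-17895653) and Tssk2 (chr16:17898637-17900024) stand next to each other with 2983 bases between them. Tssk3 lies at chr4:129489008-129491730, Tssk4 at chr14:55643651-55652539, Tssk5 at chr15:76371958-76375191 and Tssk6 at chr8:69902184-69903518. RefSeq promoter sequences (GRCm38.p6) were matched for 5 of the 6 genes, the exception being Tssk5. The 120 bases just before the annotated start are shown for the adjacent pair Tssk1 and Tssk2, because these windows share longer runs than any other pair of members did, and for Tssk6, because it alone of the 5 held a match to a motif searched from the outset. All are on the plus strand, 5′ to 3′. In the first and second sequence capitals mark runs of at least 8 bases that both windows contain, and in the third they mark motif matches.

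Tssk1, chr16:17894083-17894202: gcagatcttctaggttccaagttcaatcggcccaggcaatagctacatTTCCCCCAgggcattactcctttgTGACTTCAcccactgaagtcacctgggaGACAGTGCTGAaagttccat
Tssk2, chr16:17898517-17898636: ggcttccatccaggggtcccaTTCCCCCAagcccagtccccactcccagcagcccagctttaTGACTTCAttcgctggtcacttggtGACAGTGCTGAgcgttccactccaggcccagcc
Tssk6, chr8:69902064-69902183: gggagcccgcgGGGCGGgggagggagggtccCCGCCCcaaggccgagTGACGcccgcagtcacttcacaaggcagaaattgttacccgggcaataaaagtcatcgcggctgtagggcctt

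The longest run shared by the Tssk1 and Tssk2 windows was 11 bases, against 5 to 7 bases for the other 9 pairs of the 5 windows. Alignment with free ends matched 72 of 105 aligned bases (68.6%) between Tssk1 and Tssk2, a share that the alignment of Tssk3 with Tssk6 also reached (70 of 98, 71.4%), so only the run length set the adjacent pair apart. Both strands of the 250 bases before each start were searched for the cAMP response element TGACGTCA, the shorter TGACG (which the full element also contains), the TATA box TATAAA and the GC box GGGCGG. The cAMP response element is the site bound by CREB and by CREM, a regulator of genes active in spermatids. The table gives 1 start a gene, and those of Tssk3 and Tssk4 lie inside the gene spans given above, so other starts of these genes were not searched. None of the 5 windows held TGACGTCA, which occurs in 1.55% of the 32851 promoters of the same length, and none held TATAAA, which occurs in 12.4%. Tssk6 held TGACG once, at -73 from the start, a motif found in 17.8% of promoters. It also held GGGCGG at -109 and, on the other strand, at -89, a motif found in 32.7%. The octamer TGACTTCA was added to the search after the sequences were seen: Tssk1 held it at -48 and, on the other strand, at -35, Tssk2 held it at -58, and 1.31% of all promoters held it. These are matches of letters and not sites of binding.

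Each value below is a normalised signal, log2 of the processed signal relative to the 75th percentile of its array, so that 0 is the level of that percentile and each unit is a doubling. Probes cannot be ranked against each other by level, because probes differ in how strongly they bind. A probe was read as well above background by the scanner software's own mark, and levels below -7.22, the common floor, were set to it. The software also marks spots as non-uniform or population outliers, both called outliers here. These marks touched the members unequally: 7 of the 18 adult spots of the 6 members carried one and 0 of the neonatal spots did. Both ways of treating such spots are therefore given, spots left out and spots kept.

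At 8 weeks 5 of the 6 genes were far above their level at 6 days, by 7.02 to 12.27 log2 units with marked spots kept. The upper value is that of Tssk2, whose neonatal values of replicates 1 and 2 lay at the floor, so it is no exact size. Every adult array was above every neonatal array for the 5 genes, as it was for 26.9% of the 19310 mRNA probes tested. Tssk5 was not detected at either age. A call required a change of at least 5-fold and a limma adjusted p of at most 0.05, with each adult sample compared within its replicate pair. With marked spots kept, 5 of the 6 members were called higher in adult testis, against 12.8% of all 19310 mRNA probes tested. With marked spots left out, 3 of the 3 members that could still be tested were called higher (Tssk1, Tssk2 and Tssk6), against 12.6% of 15121 mRNA probes. No member was called lower. Without replicate 1, or without replicate 2, only Tssk6 could be tested and called (1 member) unless marked spots were kept, in which case 5 members were called. Because the tissue is whole testis, a larger share of cells of a type and more RNA per cell cannot be told apart here.

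**Figure D1:**
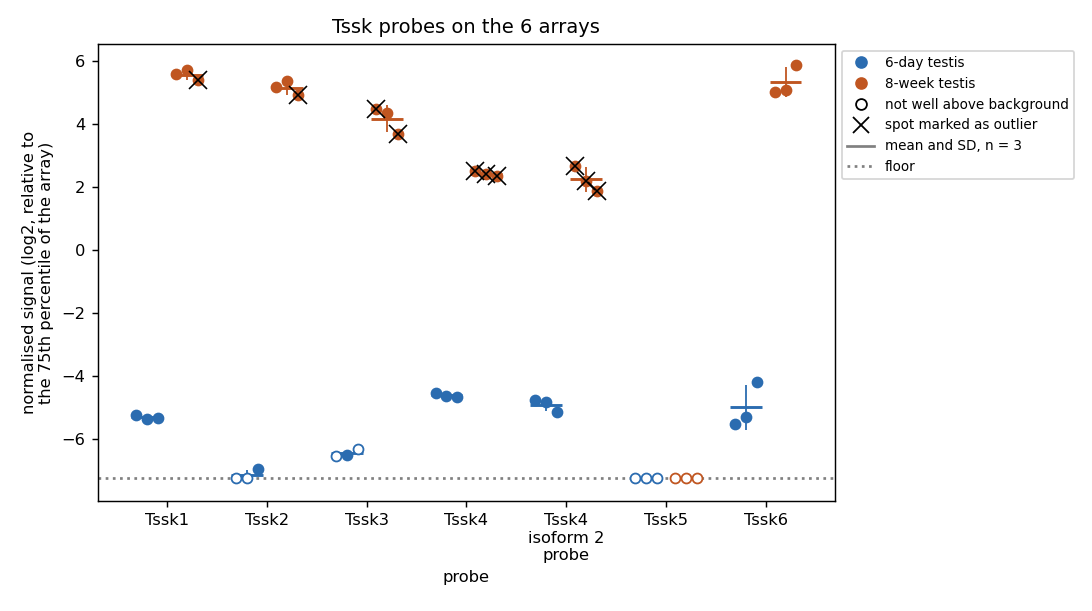
Normalised signal (log2, relative to the 75th percentile of each array) of the 6 Tssk probes and the Tssk4 isoform 2 probe on the 3 neonatal and 3 adult arrays, with replicates 1 to 3 from left to right, the mean (bar) and the SD (line) of each age. Adult spots of 5 member probes lie at 2.34 or higher, those of the isoform 2 probe at 1.88 or higher, and neonatal spots at -4.20 or lower, while all 6 spots of Tssk5 lie at the floor of -7.22.

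Tssk1 encodes one of the pair of closely related kinases that phosphorylate TSKS. Its normalised signal was -5.24, -5.36 and -5.33 on the neonatal arrays of replicates 1, 2 and 3, and 5.56, 5.70 and 5.38 on the adult arrays. All 6 spots were well above background, so a low signal was present at 6 days, and the lowest adult value stood 10.62 log2 units above the highest neonatal one. On neonatal replicate 1, however, its unscaled signal of 78.1 was below the brightest of the 153 negative control spots, 88.1. The adult spot of replicate 3 was marked as an outlier. The fitted difference, adult minus neonatal, was 10.93 on the log2 scale (SE 0.16, limma adjusted p = 0.000142, a 1949-fold change) from the remaining 2 pairs and 10.86 (SE 0.13, adjusted p = 1.1e-05) with that spot kept.

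Tssk2, the neighbour and closest relative of Tssk1, was near background at 6 days. Its neonatal values were at the floor of -7.22 in replicates 1 and 2 and -6.94 in replicate 3, the only neonatal array on which the spot was well above background. The adult values were 5.15, 5.35 and 4.91. The difference was 12.47 on the log2 scale (SE 0.15, limma adjusted p = 0.000126) with the marked adult spot of replicate 3 left out and 12.27 (SE 0.18, adjusted p = 1.13e-05) with it kept. Since 2 of the 3 neonatal values are set by the floor, the size was also read a second way. Neonatal values below the dimmest detected signal of their array were raised to it. The adult mean was then 4617-fold higher, with marked spots kept. In replicate 2 that signal lay below the floor and the value stayed at the floor, so this is no exact size either.

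Tssk3 encodes a kinase that PDPK1 can activate in the test tube. Its neonatal values were -6.53, -6.50 and -6.31, and only the spot of replicate 2 was well above background. The adult values were 4.46, 4.35 and 3.67, with the spots of replicates 1 and 3 marked as outliers. That left 1 complete pair and no test. With marked spots kept the difference was 10.61 on the log2 scale (SE 0.24, limma adjusted p = 2.2e-05), and the pairs gave 9.98 to 10.99. As only 1 neonatal spot was well above background, these sizes are not exact.

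Tssk4 was detected on all 6 arrays. The neonatal values of its member probe were -4.52, -4.62 and -4.65 and the adult values 2.51, 2.40 and 2.34, so the groups stood at least 6.86 log2 units apart. All 3 adult spots were marked as outliers and the gene could be tested only with marked spots kept, where the difference was 7.02 (SE 0.11, limma adjusted p = 1.18e-05, a 129-fold change). The isoform 2 probe read -4.75, -4.81 and -5.15 at 6 days and 2.67, 2.17 and 1.88 at 8 weeks, again with every adult spot marked. Its difference was 7.14 (SE 0.15, adjusted p = 1.68e-05, a 141-fold change), close to that of the member probe.

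Tssk6, also known as the small serine/threonine kinase of spermatids, acts in the packing of sperm chromatin and can phosphorylate the histone H2AX. It was the only one of the 5 detected members with no marked spot. Its neonatal values were -5.50, -5.28 and -4.20 and its adult values 5.02, 5.06 and 5.87. Replicate 3 was the highest array of both ages, and within pairs the difference ran only from 10.07 to 10.52. On neonatal replicate 1 its unscaled signal of 65.0, like that of Tssk1, was below the brightest negative control spot. The fit over 3 pairs gave 10.31 on the log2 scale (SE 0.13, limma adjusted p = 7.62e-05, a 1269-fold change).

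Tssk5 stood apart from the rest. None of its 6 spots was well above background, and the unscaled signals ran from 3.55 to 7.76 on the neonatal arrays and from 2.19 to 4.78 on the adult arrays, where negative control spots had medians from 1.56 to 6.03. No fold change can be given for it, and a gene without transcript and a probe that binds poorly cannot be told apart.

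The size of the difference varied between the member probes. Within the 3 replicate pairs the adult minus neonatal difference was 6.99 to 7.03 for Tssk4, below the 9.98 to 12.57 spanned by Tssk1, Tssk2, Tssk3 and Tssk6 in every pair. Tssk4 was lower than Tssk1 by 3.84 ± 0.17 (SD, n = 3 pairs) and lower than Tssk6 by 3.29 ± 0.21 log2 units. No order was read among the other 4 genes, each of which had at least 1 neonatal spot at background or below the brightest negative control. An exact two-sided sign-flip test over 3 pairs cannot go below 0.25, the value found for both of these differences (adjusted p = 0.3125 over the 10 comparisons made among the 5 detected members).

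**Figure D2:**
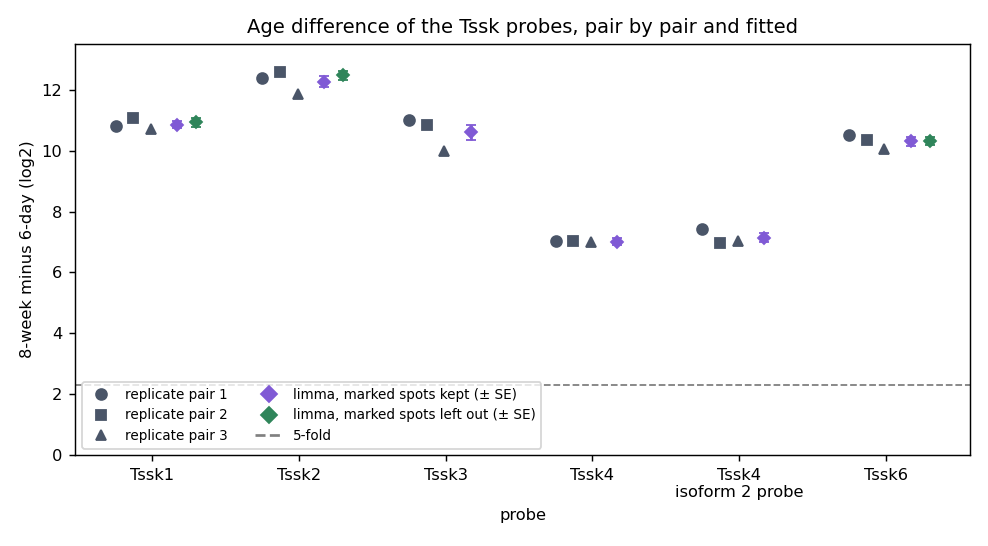
Adult minus neonatal difference (log2) of each detected Tssk probe in replicate pairs 1, 2 and 3 (grey symbols) and as fitted by limma with its SE, with marked spots kept (purple) and left out (green, for the 3 probes that could be tested). The Tssk4 probes lie near 7 and the others between 9.98 and 12.57, all above the dashed 5-fold line.

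Outlier marks differed between the scans and the slides. Arrays whose headers share a scan identifier are called a slide here, a grouping taken from that identifier alone. Adult spots of Tssk1, Tssk2 and Tssk6 on all 3 arrays, and of Tssk3 on 2, were bright enough to be read from a second scan at lower gain (11 of the 18 adult spots). Of all spots read that way, 10.53% to 13.97% were marked as outliers on the 4 arrays of the first slide and 72.7% to 73.0% on the 2 arrays of the second slide, which hold replicate 3 of both ages. Among the other spots the share was 5.90% to 10.4% on the first slide and 24.0% to 29.1% on the second. Among the members, 3 of the 11 adult spots read at low gain were marked (1 each of Tssk1, Tssk2 and Tssk3) and 4 of the other 7, which include all 3 of Tssk4. No spot was saturated. Within the first slide alone (replicates 1 and 2, marked spots kept) the differences were 10.93 for Tssk1, 10.92 for Tssk3, 7.03 for Tssk4 and 10.43 for Tssk6. For Tssk2 both neonatal spots lay at the floor of -7.22. Its 12.47 is therefore the height of the adult signal above that floor and no exact size.

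Genes that work with the kinases were examined as a list of 12 partners and substrates. With marked spots left out 5 could be tested, of which 3 were called higher and 0 lower in adult testis (12.6% and 13.7% of all mRNA probes), with a median difference of 3.75 log2 units against -0.40 over all mRNA probes. With marked spots kept all 12 could be tested, 5 were called higher and 1 lower (12.8% and 15.4% of all mRNA probes), and the median was 0.83 against -0.50. Tsks, the substrate of TSSK1 and TSSK2, read -4.88, -4.26 and -4.66 at 6 days and 5.23, 5.35 and 5.95 at 8 weeks. Its groups did not overlap, and its difference of 9.85 (SE 0.20, limma adjusted p = 0.000197) was of the size of those of the kinases. Odf2 rose by 6.45 (SE 0.14, adjusted p = 0.000216) from neonatal values of 0.81 to 1.25, and 1 of its 3 probes was not called. Crem, the transcription factor gene, rose by 3.75 (SE 0.16, adjusted p = 0.00072), and 8 of its 11 probes were called higher.

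A further pair of partners was called higher only with marked spots kept. Spag16, a gene of the sperm tail axoneme whose protein is a substrate of TSSK2, read -5.71, -6.62 and -5.66 at 6 days and 3.91, 3.82 and 3.72 at 8 weeks, a difference of 9.81 (SE 0.25, limma adjusted p = 2.68e-05). Tsacc, the co-chaperone gene, read -0.28, -0.05 and -0.99 at 6 days, with 5.58, 5.69 and 4.62 at 8 weeks, a difference of 5.74 (SE 0.12, adjusted p = 1.78e-05). The general chaperone gene Hsp90ab1 went the other way and was 22.2-fold lower in adult testis (-4.47, SE 0.22, adjusted p = 0.000142). The other 6 genes of the list did not pass both thresholds. Hsp90aa1 differed by 1.30, Pdpk1 by 0.36, H2ax by 0.30, Cdc37 by -1.56, Creb1 by -1.85 and Ppp1cc by -2.30 log2 units with marked spots kept.

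The relatives of the TSSKs in the AMP-activated kinase family, with Stk11, which activates kinases of that family, made a list of 18 kinase genes. Of these, 14 could be tested with marked spots left out, 2 were called higher and 2 lower, near the shares among all mRNA probes (12.6% higher and 13.7% lower), and the median was -1.005. With marked spots kept the counts were 2 higher and 3 lower of 17, with a median of -1.10, while 12.8% of all mRNA probes were called higher and 15.4% lower. Hunk, a kinase gene first described in mammary tissue, rose by 4.34 (SE 0.14, limma adjusted p = 0.000415), from -1.59, -1.44 and -1.50 to 2.81, 2.84 and 2.85. Brsk1 was called higher by 2.37 (SE 0.22, adjusted p = 0.00122), but none of its neonatal spots was well above background, so that its level was at least 4.85-fold higher, just under the 5-fold line.

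Among the relatives called lower, Nuak1 fell by 3.68 on the log2 scale (SE 0.19, limma adjusted p = 0.00104), and Prkaa2, a catalytic subunit of the AMP-activated kinase, fell by 3.26 (SE 0.14, adjusted p = 0.000716). Prkaa1, the other catalytic subunit, was called lower only with marked spots kept (-2.69, SE 0.47, adjusted p = 0.00622). The remaining 12 genes tested, with marked spots kept, were Sik1 to Sik3, Mark1 to Mark4, Nuak2, Brsk2, Melk, Snrk and Stk11, of which none passed both thresholds. Nim1k stayed at background throughout. The 4.34 of Hunk was the largest rise among these relatives, against 7.02 to 12.27 for the detected Tssk genes. The upper value, of Tssk2, was read partly against the floor.

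A list of 11 other genes of protein kinase signalling in male germ cells, 10 of them with a probe, served as a second comparison. With marked spots left out, 2 of 7 were called higher and 0 lower, with a median of 0.59, and with marked spots kept 4 of 10 were called higher and 0 lower, with a median of 0.92. Among all mRNA probes 12.6% were called higher and 13.7% lower with marked spots left out, and 12.8% and 15.4% with them kept. Mak, a kinase gene of meiotic and later germ cells, rose by 5.30 (SE 0.19, limma adjusted p = 0.000478), and all 3 of its probes were called. Camk4, the gene of a calmodulin-dependent kinase of spermatids, rose by 3.67 (SE 0.10, adjusted p = 0.000126), from -4.92, -4.93 and -4.76 to -1.30, -1.19 and -1.10. The largest differences of this list were those of anchoring proteins and not of kinases. Akap4, the main protein of the sperm fibrous sheath, differed by 12.36 (SE 0.21, adjusted p = 1.32e-05) with marked spots kept. Akap3, its partner in that sheath, had no neonatal spot well above background and read 3.64, 4.13 and 1.58 at 8 weeks. With marked spots kept it was at least 1213-fold higher, but the spots of adult replicates 1 and 2 were marked, and replicate 3 alone gave a bound of at least 417-fold. The genes of the list that were not called included Prkaca, the catalytic subunit of protein kinase A (0.32), Fer (1.22), Stk31 (0.59), Csnk2a2 (-0.32) and Cdk16 (-2.18). Prkar2a, which could be tested only with marked spots kept, was not called either (-2.10).

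**Figure D3:**
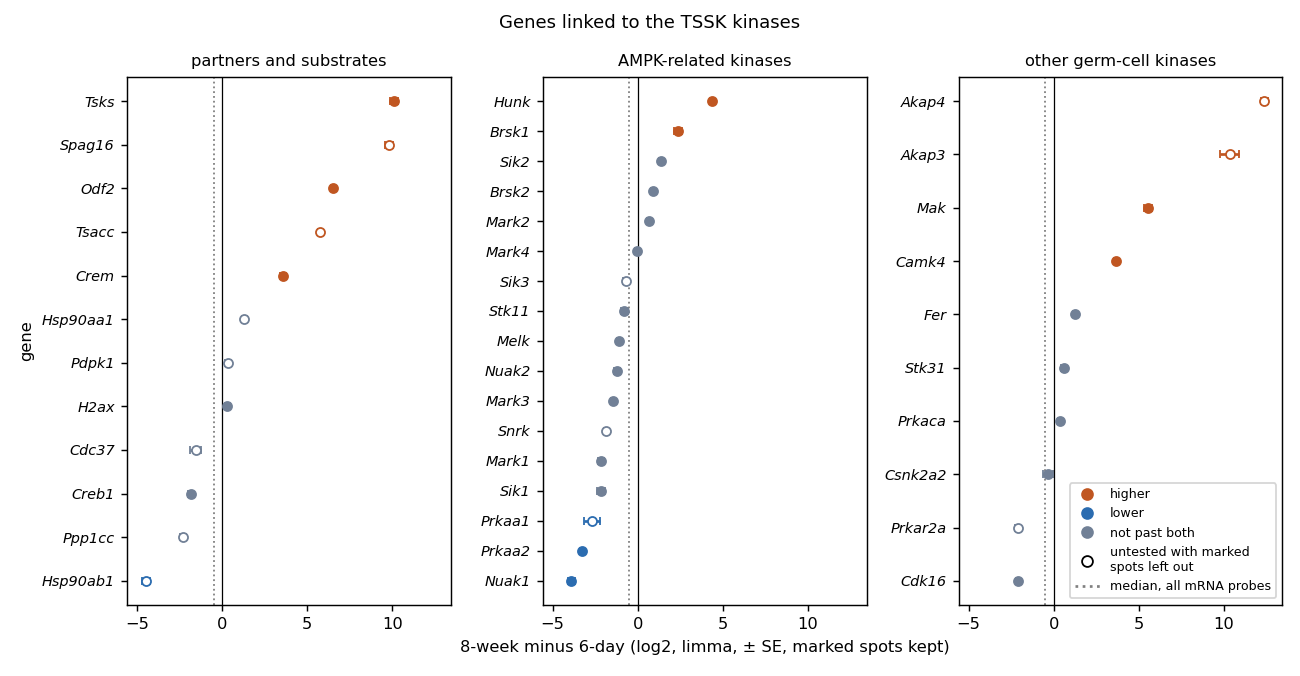
Adult minus neonatal difference (log2, limma, ± SE, marked spots kept) of the genes in the 3 lists, each sorted by size. Orange genes were called higher, blue genes lower and grey genes neither, open circles could not be tested with marked spots left out, and the dotted line is the median of all mRNA probes (-0.50).

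Neighbouring genes went in either direction. Of the 10 nearest neighbours in the RefSeq table (Tssk1 and Tssk2 being neighbours of each other), 1 was called higher and 2 lower of 6 tested with marked spots left out (12.6% and 13.7% of all mRNA probes), and the same counts held for 9 tested with marked spots kept, where 12.8% of all mRNA probes were called higher and 15.4% lower. The gene called higher was Fam229a, whose span overlaps that of Tssk3 by 541 bases. It read -2.60, -2.81 and -3.86 at 6 days and 5.94, 6.05 and 5.28 at 8 weeks, a difference of 8.70 (SE 0.17, limma adjusted p = 0.000187). The start matched for Tssk3 is at 129490770 on the minus strand, outside the span of Fam229a (chr4:129491190-129491956). The gene span of Tssk3 reaches on to 129491730. The strand of Fam229a was not read and no probe position was given, so shared signal in the overlap was not tested. Ess2, which starts 684 bases after Tssk2, was called lower by the fit (-3.74 on the log2 scale, SE 0.20, adjusted p = 0.00032). Only 1 of its 3 adult spots was well above background. With adult values below the dimmest detected signal of their array raised to it, its adult level was 11.4-fold lower. Mdp1, 5349 bases after Tssk4, fell by 2.37 (SE 0.14, adjusted p = 0.00126).

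The other neighbours did not pass both thresholds. Dgcr2, 2474 bases before Tssk1, differed by -1.97. On either side of the undetected Tssk5, Hgh1 (103 bases away) differed by 0.37 and Bop1 (77796 bases away) by -0.43. Bsdc1 before Tssk3 (-0.56), Gatad2a after Tssk6 (-0.29) and Tm9sf1, which overlaps Tssk4 by 156 bases (-0.67), could be read only with marked spots kept. Ndufa13, which overlaps Tssk6 by 375 bases, stayed at background throughout.

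**Figure D4:**
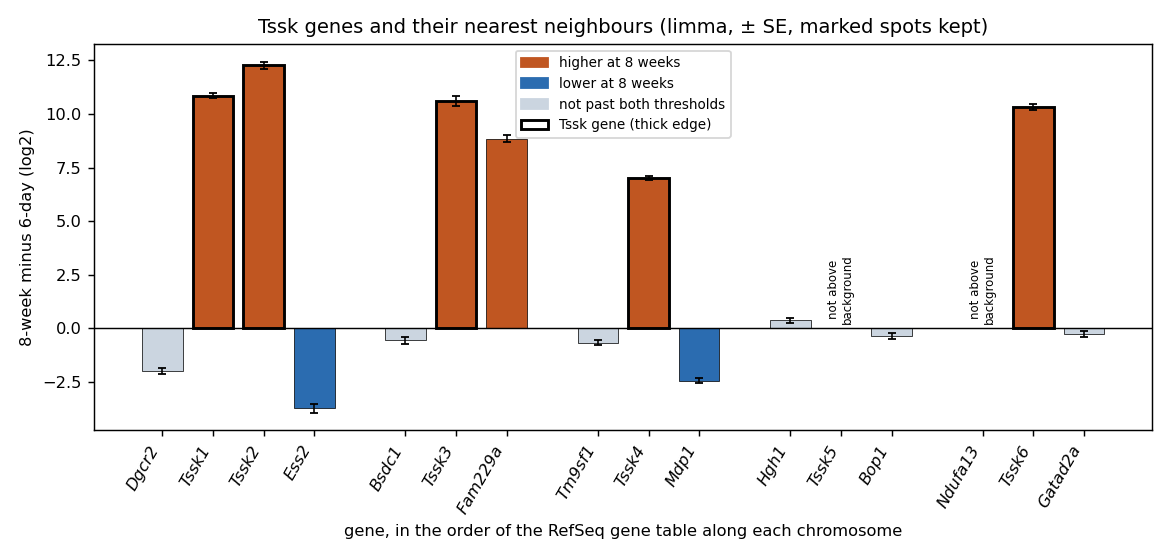
Adult minus neonatal difference (log2, limma, ± SE, marked spots kept) of the Tssk genes (thick edges) and their nearest neighbours, in chromosomal order within each group. Changes of at least 5-fold with an adjusted p of at most 0.05 are orange (higher) or blue (lower), and Fam229a is the single neighbour in orange.

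Markers of cell types differed between the ages in either direction. The summed level of 7 spermatid markers, in multiples of the 75th percentile of the array, was 0.463 to 0.566 on the neonatal and 1181 to 1613 on the adult arrays. All 6 that could be tested with marked spots left out were called higher, with a median of 13.13, and Smcp, a protein of the sperm mitochondrial capsule, was the one not above background at 6 days. Of all mRNA probes 12.6% were called higher and 13.7% lower in that setting, and 12.8% and 15.4% with marked spots kept. Of the spermatocyte markers 3 of 4 were called higher (Hspa2, Ccna1 and Piwil1), with sums of 6.34 to 10.2 on the neonatal and 140 to 182 on the adult arrays. The rise of the sum was carried by these 3 genes. Dmc1, the other one tested, differed by -2.06 log2 units without being called, and Sycp3, read with marked spots kept, by 0.09. The summed spermatogonium markers went from 85.4 to 98.4 down to 15.3 to 20.6 (1 of 3 tested called lower) and the Sertoli cell markers from 40.2 to 61.4 down to 11.1 to 14.6 (0 of 2 called). With marked spots left out, 2 of 3 endothelial markers were called lower and none of the Leydig, myoid, macrophage, red blood cell or epididymis markers was called. With them kept, 3 of 4 spermatogonium, 2 of 5 Sertoli cell and 1 of 2 red blood cell markers were called lower, and 1 of 5 Leydig cell markers higher. The red blood cell marker not called, Alas2, went the other way (2.01). The summed Leydig cell markers stood at 25.2 to 28.2 on the neonatal and 54.1 to 72.7 on the adult arrays, a rise carried by Insl3 (means of 1.92 and 5.41), while Hsd3b1 went from 4.23 to 3.16. The summed epididymis markers separated the neonatal samples, with 5.43 and 5.72 in replicates 1 and 3, 0.0545 in replicate 2 and 0.0546 to 0.100 on the adult arrays. Most of this sum was Crisp1, a secreted protein of the epididymis, at 2.43, -4.34 and 2.51 in neonatal replicates 1, 2 and 3. Of the other epididymis markers Lcn8 stayed at background, Lcn5 was well above it on 1 neonatal array, and Rnase10 was so on the 3 adult arrays and no neonatal one. The part of these cell types in the differences of the Tssk genes was not tested.

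The profiles of the 5 detected members over the 6 arrays had Pearson correlations of 0.993 to 0.9998 with each other, which is a description of 2 ages and not of 6 independent points. The same holds for their nearest likenesses on the array. Among 6833 mRNA probes well above background on at least 3 arrays and free of marked spots, the 5 most like the mean Tssk profile were Nectin3, an adhesion molecule of the junctions between spermatids and Sertoli cells (r = 0.9998), Tmem235 (0.9997), Serpinb9e, a serine protease inhibitor (0.9997), Hsd17b2, an enzyme of steroid inactivation (0.9997), and H1f6, the testis-specific linker histone (0.9997). Likeness to a profile that is high at 8 weeks fixes the direction of these genes, so no test was made on them. Serpinb9e, Hsd17b2 and H1f6 had no neonatal spot well above background, and Tmem235 alone had all 6. A correlation of at least 0.99 was common, reached by 525 of these probes (7.68%).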

How the data were processed

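Total RNA of 3 neonatal and 3 adult samples was converted to cDNA with oligo dT primer, labelled with Cy3 and hybridized to single-colour Agilent arrays. The authors deposited the scanner's intensity values per spot (Agilent Feature Extraction 10.5.1.1, named in the submitters' processing notes), in which the processed signal is already background-corrected. The authors also deposited a table of normalized log2 values, used only as an alternative. The study's own fold changes and p-values were not used.

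Each array's processed signals were divided by the 75th percentile of its non-control probes, log2-transformed and floored at -7.22. Spots marked as non-uniform or population outliers (6.11% to 30.7% of an array) were left out after scaling, or kept as a stated alternative. Probes that were detected well above background somewhere and had at least 2 complete pairs (15121 mRNA and 9396 long non-coding RNA) were fitted with limma 3.58.1 in R 4.3.3, blocked on replicate number, since a paired test is what the study's methods state. P-values were Benjamini-Hochberg adjusted over all 24517 probes, and calls needed 5-fold and 0.05. Values given per age and per array have marked spots kept. Deviations from the age means correlated at 0.40, 0.34 and 0.68 for replicates 1, 2 and 3. Crossed combinations on the first slide gave 0.37 and 0.43, so pairing by number and by slide cannot be told apart, and tests over pairs take the pairing from the numbers. The number of arrays limits the precision. Correlations between arrays were 0.982 to 0.996 within an age and 0.751 to 0.768 between ages, 65.9% to 69.8% of probes were well above background, and the 75th percentiles ran from 747 to 2947.

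Accessions of 21905 mRNA probes (97.5%) were named through RefSeq (GRCm38.p6). The genes named were all members and neighbours, up to 6 called genes of each kinase or partner list by size, the 5 probes most like the members, and some markers. Uncalled genes of the kinase and partner lists were given by value, but those related to the AMP-activated kinase by name only. Where a gene had several probes, the one with the highest mean signal was read, and for a gene called with marked spots left out it is said where another of its probes was not called. The members and lists were chosen with earlier results of these data known. For bounds, values of the dimmer age below the dimmest signal well above background on their array were raised to it. Where the common floor was higher than that signal, the floor stayed. The code of the fit was run on simulated data with independent noise and no replicate or slide effect, which is a check of the code only. Alternatives covered scaling, floor, filter, block, background correction, marked spots and each replicate. The normexp alternative used the median pixel signal and median background.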

Additional observations from a re-analysis of the deposited data

How the results depend on the processing

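The fitted differences of the detected members kept their direction and stayed past both thresholds under every alternative in which they could be tested. They ran from 9.65 to 10.98 for Tssk1, 10.17 to 13.95 for Tssk2, 8.20 to 10.92 for Tssk3, 6.22 to 7.03 for Tssk4, 5.85 to 7.22 for its isoform 2 probe and 9.42 to 10.71 for Tssk6. The lowest values came from the normexp alternative with marked spots kept. That setting also read the median pixel signal, so the low values cannot be put down to the background correction alone. Which members could be tested depended on the marked spots: 3 were called higher with these left out and 5 with the authors' log2 values and with marked spots kept, whether the processed or the median pixel signal was read. Without the replicate block 3 members were called (5 with marked spots kept), as with it. Leaving out replicate 1 or replicate 2 (or only its adult array, without the block) left 1 member called, Tssk6, because Tssk1 and Tssk2 then had too few unmarked spots, a range of 1 to 3 that became 5 to 5 with marked spots kept. Of the 26 kinase and partner genes tested, 7 were called higher and 2 lower. The number tested was 39 with the authors' values or marked spots kept, and with marked spots left out it fell to 9 without replicate 1 or 2 (12 where a single array of these was left out, without the block), so these counts are not over the same genes. Higher calls were 11 with the authors' values, with marked spots kept, and with these and no replicate block or quantile scaling, and leaving out replicates gave 1 to 7 (10 to 11 with marked spots kept). Lower calls were 5 with quantile scaling and with a median shift, 1 with normexp and with the methods' t-test after adjustment, 9 with the authors' values and with a 2-fold threshold, 4 with marked spots kept (also without the replicate block, or read from median pixel signals) and 8 with quantile scaling as well. Leaving out replicates gave 0 to 3 lower calls (4 to 5 with marked spots kept). The settings with marked spots kept, other than that alone, and the median pixel signal were chosen after seeing the data. Signals near background at 6 days limit how large the differences of Tssk2 and Tssk3 can read, and on neonatal replicate 1 those of Tssk1 and Tssk6.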
